A study of Mus musculus with 6 samples.

Results

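The genes described here encode vasoactive peptides, the enzymes that activate them and the receptors through which they and catecholamines or serotonin set vessel tone. The list held 38 mouse genes: adrenergic receptors and members of the angiotensin, endothelin, natriuretic peptide and adrenomedullin systems, with single receptors for vasopressin, kinins, serotonin, tachykinins and platelet-activating factor (PAF). They were found as non-control probes carrying one of these gene names, from a list drawn up by gene function with earlier results of these data known. All 38 had a probe on the array, and 30 of them were bright enough to be tested, among 21478 tested genes in all.

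Aortic arteries came from C57BL/6 fetuses at E18.5, from Nod1 -/- dams mated with Nod1 +/- males. Each dam had received 500 µg of FK565, a synthetic ligand of the peptidoglycan sensor NOD1, under the skin 6 h before the vessels were taken. One group was 3 Nod1 +/- arrays, with 1 functional allele, and the other 3 Nod1 -/- arrays, described as littermates. All fetuses thus came from ligand-injected mothers without functional Nod1, and no vessels without ligand were measured. The labels do not say whether an array held a single fetus, so each p-value reflects only how far these samples differ, which may be technical. The number of arrays limits the precision.

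In the vessel wall these systems work as opposing pairs. Endothelin-1, made by endothelium and cut to its active form by endothelin-converting enzyme, contracts smooth muscle through the endothelin A receptor, and angiotensin II and noradrenaline contract it through AT1 and alpha-1 adrenergic receptors. Adrenomedullin and CGRP relax vessels through the calcitonin-receptor-like receptor (CALCRL), which needs a RAMP protein as partner to reach the surface and to choose its ligand. Natriuretic peptides relax vessels through guanylyl-cyclase receptors and are cleared by NPR3.

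The promoters of 4 of the receptor genes that were lower in Nod1 +/- aortas are shown as examples from 4 of the systems; they were chosen after the values were seen. Each sequence is the 250 bases before the annotated start from RefSeq (build GRCm38.p6), 5′ to 3′ on the gene's strand, and capitals mark matches to a searched motif.
Ednra (chr8:77724453-77724702, minus strand): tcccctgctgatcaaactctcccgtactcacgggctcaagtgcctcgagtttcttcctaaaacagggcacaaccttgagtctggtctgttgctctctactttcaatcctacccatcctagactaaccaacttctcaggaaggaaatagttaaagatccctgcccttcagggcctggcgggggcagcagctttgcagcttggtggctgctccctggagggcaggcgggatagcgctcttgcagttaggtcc
Calcrl (chr2:84425267-84425516, minus strand): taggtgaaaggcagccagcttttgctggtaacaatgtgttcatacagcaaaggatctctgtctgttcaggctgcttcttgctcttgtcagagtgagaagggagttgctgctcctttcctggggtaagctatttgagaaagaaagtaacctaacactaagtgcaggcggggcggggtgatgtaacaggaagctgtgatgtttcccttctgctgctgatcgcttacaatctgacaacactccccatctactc
Agtr2 (chrX:21484374-21484623, plus strand): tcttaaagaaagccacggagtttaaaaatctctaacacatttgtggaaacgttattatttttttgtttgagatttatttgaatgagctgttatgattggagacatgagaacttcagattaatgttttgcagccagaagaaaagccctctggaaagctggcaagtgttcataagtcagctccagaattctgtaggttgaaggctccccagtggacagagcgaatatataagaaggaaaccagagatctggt
Htr2b (chr1:86111981-86112230, minus strand): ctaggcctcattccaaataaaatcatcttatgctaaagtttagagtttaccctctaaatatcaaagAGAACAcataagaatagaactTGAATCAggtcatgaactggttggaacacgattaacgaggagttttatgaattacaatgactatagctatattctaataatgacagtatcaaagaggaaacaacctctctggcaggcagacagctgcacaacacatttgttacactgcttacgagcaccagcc

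Both strands were searched for the AP-1 motif TGANTCA and for the cyclic AMP response element TGACGTCA. The search also took in the core promoter motif TATAAA, known as the TATA box, the binding motif AGATAA of the GATA factors, and the glucocorticoid receptor hexamer AGAACA, along with the NF-kB consensus and the CArG box. RefSeq held a promoter for 32 of the 38 members, Ramp2 and Adra1d not among them. An NF-kB match stood in 1 of these 32, Ramp3, against 3.90% of all 32851 promoters searched. Of the 4 shown, Htr2b alone held any match, an AP-1 match 163 to 157 bases before its start (6.75% of all promoters hold one) and the AGAACA hexamer 184 to 179 bases before it (16.1%). A TATAAA match stood in 8 of the 32 members, among them Agtr1b, against 12.4% of all promoters. It lay on the minus strand in Ace, 137 to 132 bases before the start in Avpr1a and 9 to 4 bases before it in Nppa. A member counted if any of its promoters matched, whereas the shares of all promoters count each promoter singly, so the 2 are not like for like. These matches describe letters in a window and are not shown to be binding sites.

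Values are log2 signal minus the 75th percentile of the array's probes, so a value of 0 is the level of that percentile. Levels are compared between arrays for 1 probe at a time, never between genes. Differences are Nod1 +/- minus Nod1 -/- on the log2 scale, with their standard error and the adjusted p of limma's moderated test over all 21478 genes. Genes past an adjusted p of 0.05 are called changed.

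Among the 30 tested members 11 fell and 1 rose in Nod1 +/- aortas. The 11 were 8 receptor genes (Adra1d, Adra2c, Agtr1b, Agtr2, Ednra, Npr3, Htr2b and Calcrl), the receptor partners Ramp1 and Ramp2, and the peptide gene Edn2, and the member that rose was Ece1. Of all genes tested 18.7% changed, 7.66% upward and 11% downward, and of the tested members 40.0%. Of the 11 that fell, 8 were well above background on all Nod1 +/- arrays. Edn2 and Adra2c were so on none, and entered the test only through the Nod1 -/- arrays, where they were brighter, and Adra1d was so on 2 of 3. The median difference of the tested members was -0.37, beside -0.10 for all genes, and was -0.17 with normexp background correction, beside -0.07, and -0.05 over all 38 members without a filter on dim probes, beside -0.02. The genotypes did not overlap for 16 of the 30 members (53.3%) and for 42.4% of all genes. When arrays were scaled instead on the median of all probes, an alternative chosen with the data in view, the median over all genes was 0.01 and 1580 genes rose and 926 fell, in place of 1646 and 2366. Under that scaling 9 members fell and 1 rose, and the members' median was -0.27.

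**Figure D1:**
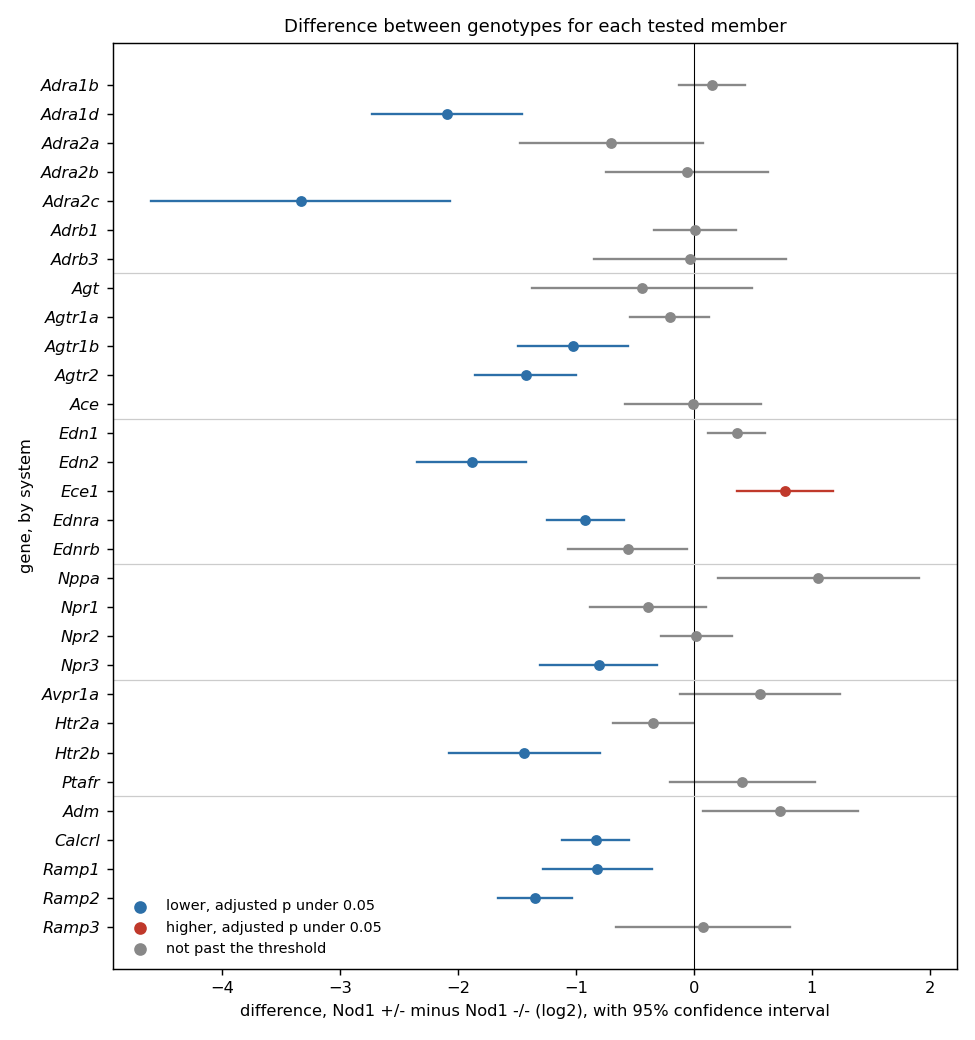
Difference between genotypes in log2 units (x axis) for each of the 30 tested members (y axis, grouped by system), with its 95% confidence interval. The 11 blue genes lie to the left of 0, between -0.81 and -3.34, and Ece1, in red, is the 1 changed gene to the right.

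On the slide, Nod1 -/- replicates 1 and 2 lay in row 1 and the remaining 4 arrays in row 2, so within a row the Nod1 +/- arrays can be set only against Nod1 -/- replicate 3. Blocking on slide row therefore compares the Nod1 +/- arrays with that single array, which is assumed to vary like the others, with the row 1 arrays adding only to the estimate of the spread. In that fit no changed member turned direction, 9 of the 12 calls were lost, and Agtr2, Edn2 and Ramp2 stayed past the threshold. Ramp2 was past it in all 19 settings tried, as was Edn2, whose Nod1 +/- values were at background throughout. Leaving out replicate 1 of both genotypes kept the calls of Adra1d, Adra2c, Edn2 and Ramp2. For the other changed members the arrays and settings that end a call are given with each gene.

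The adrenomedullin and CGRP system had the most members that fell, 3 of its 5 (60%, beside 11% of all genes). That lead is uncertain, because it counts Ramp1, whose call held in 8 of 19 settings and was not shared by its other probes. Adm, which encodes the vasodilator peptide adrenomedullin, was read by a probe at chr7:117773088-117773147 (mm9, as for all probes). Its values were 1.32, 1.40 and 1.86 on Nod1 +/- replicates 1 to 3 and 1.26, 0.80 and 0.32 on Nod1 -/- replicates 1 to 3. All Nod1 +/- arrays lay above all Nod1 -/- arrays, by a narrow gap, and the difference of 0.73 (standard error 0.27; 95% confidence interval 0.08 to 1.39) did not pass (adjusted p = 0.11). No setting gave Adm an adjusted p below 0.0683.

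Ramp2, the partner that turns CALCRL into an adrenomedullin receptor, was measured at chr11:101109501-101109560, by a probe beginning gcagcaaaggggactcacgacacaatgttt (first 30 of 60 bases). It read 4.48, 4.72 and 4.81 in Nod1 +/- and 6.16, 5.99 and 5.91 in Nod1 -/- aortas. The gap between the groups was wider than the range within either. Ramp2 fell by 1.35, a 2.55-fold lower signal (standard error 0.13; adjusted p = 0.00248), and by 1.24 within slide row 2 (adjusted p = 0.0321).

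Calcrl, the receptor itself (chr2:84173073-84173132), read -2.44, -2.29 and -2.61 in Nod1 +/- against -1.55, -1.58 and -1.70 in Nod1 -/- aortas. Every Nod1 -/- array lay above every Nod1 +/- array. Calcrl fell 1.78-fold (-0.83, standard error 0.12; adjusted p = 0.00792), a call lost when blocking on slide row (-0.74; 0.0801) and without both first arrays (0.108). With normexp background correction the difference was -0.53.

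Ramp1, the partner that makes CALCRL a CGRP receptor, had 3 probes, and they did not give the same answer. The brightest, whose mm9 match runs from 93093453 to 93119708 on chromosome 1 and so spans more genome than its 60 bases, read 2.63, 2.86 and 2.29 against 3.26, 3.67 and 3.30. By it Ramp1 fell 1.76-fold (-0.82, standard error 0.19; adjusted p = 0.0333). The probe at chr1:93121428-93121487 differed by -0.33 (adjusted p = 0.291 over all kept probes) and the one at chr1:93103294-93103353, designed on another transcript, by -0.02 (0.938). The mean of the 3 probes differed by -0.39 (adjusted p = 0.105). The call also depended on single arrays: it was lost without Nod1 +/- replicate 1 (0.0834) or 3 (0.0586) or any one Nod1 -/- array (0.0626 to 0.104), and when blocking on slide row (0.22), with adjustment for Xist signal (0.0618), all-probe median scaling (0.102) or no filter on dim probes (0.0908), and without both first arrays (0.151).

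Ramp3, the other adrenomedullin partner, read -1.56, -1.96 and -1.03 against -1.11, -1.78 and -1.89, with the genotypes interleaved. Its difference was 0.08 (95% confidence interval -0.66 to 0.82; adjusted p = 0.871). A second Ramp3 probe that overlaps the first differed by 0.56 (adjusted p = 0.278 over all kept probes).

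**Figure D2:**
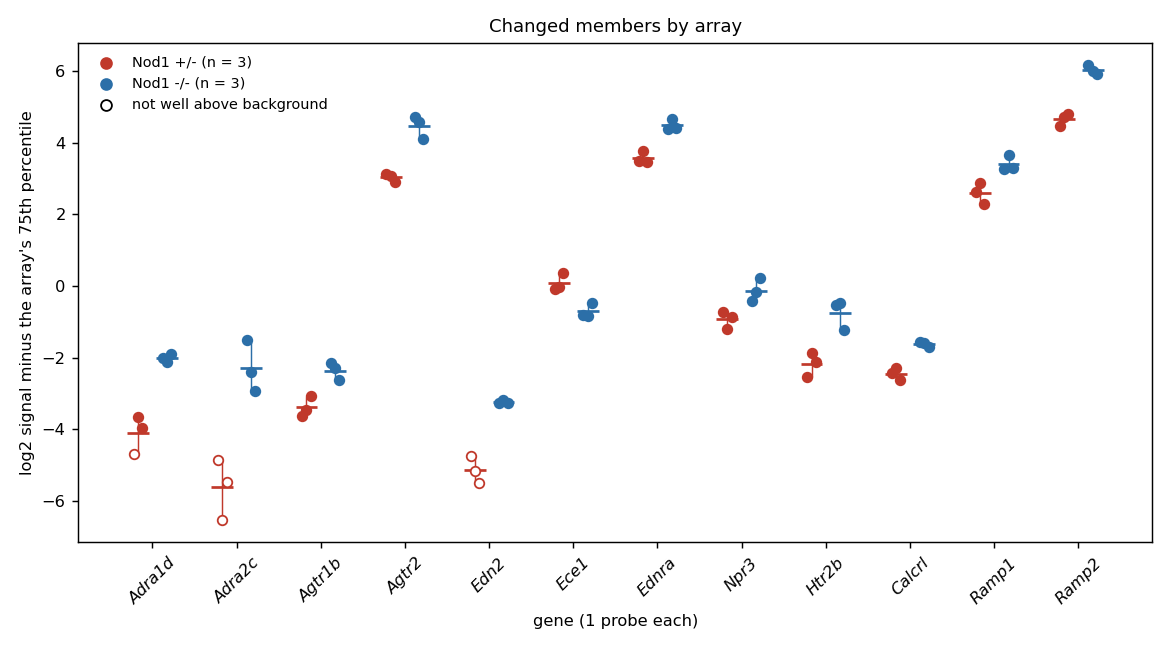
Log2 signal minus the array's 75th percentile (y axis) for the 12 changed members (x axis), 1 point per array, with the mean (bar) and SD (line) of 3 arrays; open points were not well above background. The 12 were picked by the test on these same arrays. The genotypes do not overlap for any of them, or for 42.4% of all genes. Ramp2 separates from 4.48 to 4.81 in Nod1 +/- to 5.91 to 6.16 in Nod1 -/-.

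In the endothelin system Ece1 rose in Nod1 +/- aortas, Edn2 and Ednra fell, and Edn1 and Ednrb did not pass the test. Of these 5 genes 60% changed, beside 18.7% of all genes. Edn1, the endothelial vasoconstrictor peptide (chr13:42403101-42403160), read 1.96, 2.06 and 1.91 in Nod1 +/- and 1.71, 1.60 and 1.52 in Nod1 -/- aortas. The groups did not overlap, and the difference of 0.36 (1.29-fold; standard error 0.10; 95% confidence interval 0.12 to 0.61) just missed the threshold at an adjusted p of 0.0539. It passed under 6 of 19 settings, with normexp (0.0433), quantile scaling (0.0393), median scaling over tested genes (0.0397), a stricter filter on dim probes (0.0496), an intensity trend (0.0331) and the deposited table (0.0399), and reached 0.228 at most. The 250 bases before its start held none of the motifs searched.

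Ece1, endothelin-converting enzyme (chr4:137519606-137519665), was the member that rose. Its values were -0.09, -0.03 and 0.36 in Nod1 +/- and -0.80, -0.83 and -0.47 in Nod1 -/- aortas, a 1.71-fold difference (0.77, standard error 0.17; adjusted p = 0.0283). In each genotype replicate 3 was highest, and the groups stayed apart. The call was lost without Nod1 +/- replicate 1 (0.0517) or 2 (0.0625), without Nod1 -/- replicate 1 (0.0912) or 2 (0.102), when blocking on slide row (0.54; 0.217), with adjustment for Xist signal (0.0712) or no filter on dim probes (0.0815), and without both first arrays (0.143).

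Edn2, which encodes a second endothelin (chr4:119839682-119839741), was well above background on all Nod1 -/- arrays and on none of the Nod1 +/- arrays. The values were -4.75, -5.15 and -5.49 against -3.27, -3.19 and -3.27, with the Nod1 -/- arrays close together. Because the Nod1 +/- level is only a bound, Edn2 was at least 1.95-fold lower (measured difference -1.89, standard error 0.19; adjusted p = 0.00288). With normexp, whose offset shrinks differences of dim probes, it was -0.52. Edn3 was not well above background on any array.

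Ednra, the endothelin A receptor of smooth muscle (chr8:80186985-80187044), read 3.49, 3.77 and 3.45 in Nod1 +/- and 4.40, 4.66 and 4.42 in Nod1 -/- aortas. The gap between the groups was larger than the range within either. Ednra fell 1.90-fold (-0.92, standard error 0.13; adjusted p = 0.00869). The call was lost when blocking on slide row (-0.85; 0.0859) and without both first arrays (-0.93; 0.0921).

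Ednrb, the endothelin B receptor of endothelium and neural crest derivatives, had 2 probes of like direction. The brighter one (chr14:104214484-104214543) read 0.91, 1.03 and 0.95 against 1.67, 1.84 and 1.06. Nod1 -/- replicate 3 stood just above the highest Nod1 +/- array and apart from the other Nod1 -/- arrays. The gene differed by -0.56 (95% confidence interval -1.07 to -0.06), did not pass (adjusted p = 0.112), passed without that array (-0.79; 0.0178), and was -0.39 (0.172 over all kept probes) for the second probe.

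Of the 5 angiotensin genes 2 fell, both receptors (40% changed, beside 18.7% of all genes). Agt, the precursor angiotensinogen, spread from -1.76 to -0.49 in Nod1 +/- and from -1.04 to -0.13 in Nod1 -/- aortas, differing by -0.44 (95% confidence interval -1.37 to 0.49; adjusted p = 0.449). Ace, the converting enzyme of endothelium (chr11:105850398-105850457), read 0.83, 1.37 and 1.60 against 1.17, 1.08 and 1.58. Its interval for the difference ran from -0.58 to 0.57 (adjusted p = 0.984).

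Agtr1a, the main contractile angiotensin receptor of mouse vessels (chr13:30474638-30474697), read 0.61, 0.40 and 0.57 against 0.97, 0.67 and 0.57. The groups overlapped at Nod1 -/- replicate 3, and the difference was -0.21 (95% confidence interval -0.54 to 0.13; adjusted p = 0.325). Agtr1b, its closely related second copy (chr3:20213539-20213598), read -3.63, -3.45 and -3.08 against -2.15, -2.30 and -2.63. Agtr1b fell 2.04-fold (-1.03, standard error 0.19; adjusted p = 0.018). The call was lost without Nod1 +/- replicate 1 (0.0525) or 2 (0.0584), without Nod1 -/- replicate 1 (0.0605) or 2 (0.0742), when blocking on replicate number (0.0583) or slide row (0.152), without a filter on dim probes (0.0554) and without both first arrays (0.138), and normexp gave -0.52. The file does not say whether either probe also binds the other copy, so the pair is uncertain.

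Agtr2, the second angiotensin receptor type and abundant in fetal vessels (chrX:21065564-21065623), had values of 3.12, 3.08 and 2.91 in Nod1 +/- and 4.70, 4.59 and 4.11 in Nod1 -/- aortas. Nod1 -/- replicate 3 was the lowest of its group and still well above the highest Nod1 +/- array. Agtr2 fell 2.69-fold (-1.43, standard error 0.18; adjusted p = 0.00541), and by 1.07 within slide row 2 (0.0284). The gene is X-linked. With Xist signal, which marks the inactive X of female fetuses, as a covariate the difference was -1.48 (0.0161), and without both first arrays it was -1.35 (0.0582).

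Among 7 tested adrenergic receptors 2 fell and none rose (28.6% changed, beside 18.7% of all genes). Adra1d, a contractile alpha-1 receptor of large arteries, was read by 2 probes. The brighter (chr2:131371198-131371257) gave -4.69, -3.66 and -3.97 in Nod1 +/- and -2.02, -2.11 and -1.90 in Nod1 -/- aortas, and Nod1 +/- replicate 1 was not well above background. Adra1d fell 4.28-fold (-2.10, standard error 0.26, adjusted p = 0.00562) on this probe, a size that includes the background-level value of that array. The second probe was well above background on no Nod1 +/- array, so its measured difference of -2.15 is no exact size. For the brighter probe the difference was -2.21 at an adjusted p of 0.0511 when blocking on slide row, and normexp gave -0.85.

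Adra2c, an alpha-2 receptor that restrains noradrenaline release from sympathetic nerves and is also made by smooth muscle of small vessels (chr5:35624269-35624328), was one of the dim members. It read -4.85, -6.52 and -5.46 in Nod1 +/- aortas, none well above background, and -1.50, -2.39 and -2.94 in Nod1 -/- aortas. Adra2c was at least 3.81-fold lower (measured difference -3.34, standard error 0.52; adjusted p = 0.0107), and differed by -2.68 (0.106) when blocking on slide row and by -1.12 with normexp. Sympathetic and chromaffin markers also varied between arrays. All 10 were above background on at least 3 arrays, but Chga and Slc6a2 were not so on every array. The mean of the 10, which includes these background-level values, ran from -2.35 to 0.34 in Nod1 +/- and from -1.33 to 2.32 in Nod1 -/- aortas. It was highest on the same Nod1 -/- array as Adra2c. On Nod1 +/- replicate 1 the mean was 0.34 with Adra2c at background, and on Nod1 -/- replicate 3 it was -1.33 with Adra2c at -2.94. None of the 10 changed, with a median difference of -1.79, and their part in the Adra2c result was not tested.

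Adra1b, another contractile alpha-1 receptor (chr11:43589067-43589126), read 1.16, 1.14 and 0.86 against 0.92, 0.86 and 0.92. Its groups overlapped, and its interval for the difference ran from -0.12 to 0.43 (adjusted p = 0.374). A dimmer Adra1b probe at chr11:43588147-43588206 differed by -0.80 (adjusted p = 0.142 over all kept probes). Adra2a, the other presynaptic alpha-2 receptor, differed by -0.70 (adjusted p = 0.173) with overlapping groups, and by the same amount at 0.0288 when blocking on replicate number.

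The beta-1 receptor gene Adrb1 gave a different answer with each of its 2 probes. They begin, 5′ to 3′, with these 30 of 60 bases, shown because the reading depends on the probe.
Adrb1 brighter probe (chr19:56799215-56799274): gttggaaggccattttgcacagtgttaggc
Adrb1 dimmer probe (chr19:56797242-56797301): ctccttcttctgcgagctctggacttcggt
The brighter probe read -2.49, -2.61 and -2.68 against -2.61, -2.83 and -2.37, differing by 0.01 (95% confidence interval -0.34 to 0.35; adjusted p = 0.971). The dimmer probe read -5.78, -5.37 and -5.26 in Nod1 +/- and -4.42, -3.64 and -3.80 in Nod1 -/- aortas and exceeded background on 3 of 6 arrays, none of them Nod1 +/-. Its measured difference of -1.52 (adjusted p = 0.013 over all kept probes) and the -0.75 of both probes' mean (0.0171) therefore rest on background-level values and are no exact sizes. Adrb3, the beta receptor of fat, and Adra2b differed by -0.03 and -0.06, with intervals from -0.85 to 0.78 and from -0.75 to 0.63.

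Of the natriuretic peptide genes 4 were tested and 1 fell (25% changed, beside 18.7% of all genes). Nppa, the atrial peptide (chr4:147376024-147376083), read -0.58, -1.19 and -1.01 in Nod1 +/- and -2.74, -1.72 and -1.49 in Nod1 -/- aortas. The groups did not overlap, and the difference of 1.06 (standard error 0.35; 95% confidence interval 0.20 to 1.91) did not pass (adjusted p = 0.0869), except with normexp (0.72; 0.0487). Cardiomyocyte markers, all 9 above background, averaged 4.47 to 5.16 in Nod1 +/- and 4.14 to 5.04 in Nod1 -/- aortas. The array lowest for Nppa, Nod1 -/- replicate 1, was also lowest for these markers. Nod1 -/- replicates 2 and 3 had higher marker means (4.75 and 5.04) than Nod1 +/- replicate 3 (4.47) but lower Nppa. The part of these markers in the Nppa difference was not tested.

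Npr1, the receptor for the cardiac natriuretic peptides, read -3.36, -3.19 and -2.85 against -2.88, -2.95 and -2.40. Its groups overlapped, and it differed by -0.39 (95% confidence interval -0.88 to 0.10; adjusted p = 0.218). Npr2, the receptor for C-type natriuretic peptide, differed by 0.02 with an interval from -0.28 to 0.32. Npr3, the clearance receptor (chr15:11769937-11769996), read -0.73, -1.21 and -0.86 against -0.41, -0.18 and 0.21 and fell 1.75-fold (-0.81, standard error 0.20; adjusted p = 0.0424). This call held in the fewest settings of the 12, 6 of 19. It was lost without any one array (0.0542 to 0.116), with either median scaling (0.0528 and 0.0562), when blocking on replicate number (0.0637) or slide row (-1.15; 0.0647), with adjustment for Xist signal (0.0919), without a filter (0.109) and without both first arrays (0.093).

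Among the remaining receptors 4 were tested and Htr2b fell (25% changed, beside 18.7% of all genes). Htr2b, a serotonin receptor of endothelium, heart valves and fibroblasts (chr1:87995712-87995771), read -2.55, -1.87 and -2.12 in Nod1 +/- and -0.52, -0.49 and -1.23 in Nod1 -/- aortas. Nod1 -/- replicate 3 lay between the other Nod1 -/- arrays and the Nod1 +/- arrays. Htr2b fell 2.71-fold (-1.44, standard error 0.26; adjusted p = 0.0171), with the call lost without Nod1 -/- replicate 1 (0.0588) or 2 (0.0699), when blocking on slide row (-0.95; 0.125), without a filter on dim probes (0.0516) and without both first arrays (0.124).

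Htr2a, the contractile serotonin receptor of arteries, differed by -0.35 (95% confidence interval -0.69 to -0.01; adjusted p = 0.134), and passed without Nod1 +/- replicate 3 (-0.48; 0.0397). Avpr1a, the vasopressin receptor of smooth muscle, and Ptafr, the PAF receptor, differed by 0.56 and 0.41, with intervals from -0.12 to 1.24 and from -0.20 to 1.03 (adjusted p = 0.205 and 0.291). The groups overlapped for all 3 genes.

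The 8 untested members were dim, and for 6 of them no array was well above background. These were Adra1a, Edn3, Nppc, Bdkrb1, Htr1b and Tacr1, with Nppb above background on 2 arrays and the kinin receptor gene Bdkrb2 on 1. Bdkrb1, the inducible kinin receptor (chr12:106843460-106843519), read -4.19, -4.36 and -4.45 in Nod1 +/- and -6.80, -6.81 and -6.27 in Nod1 -/- aortas. The substance P receptor gene Tacr1 read -5.57, -5.01 and -4.97 against -6.73, -6.74 and -6.10. Neither gene's groups overlapped, but with every array at background no fold is given for them.

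**Figure D3:**
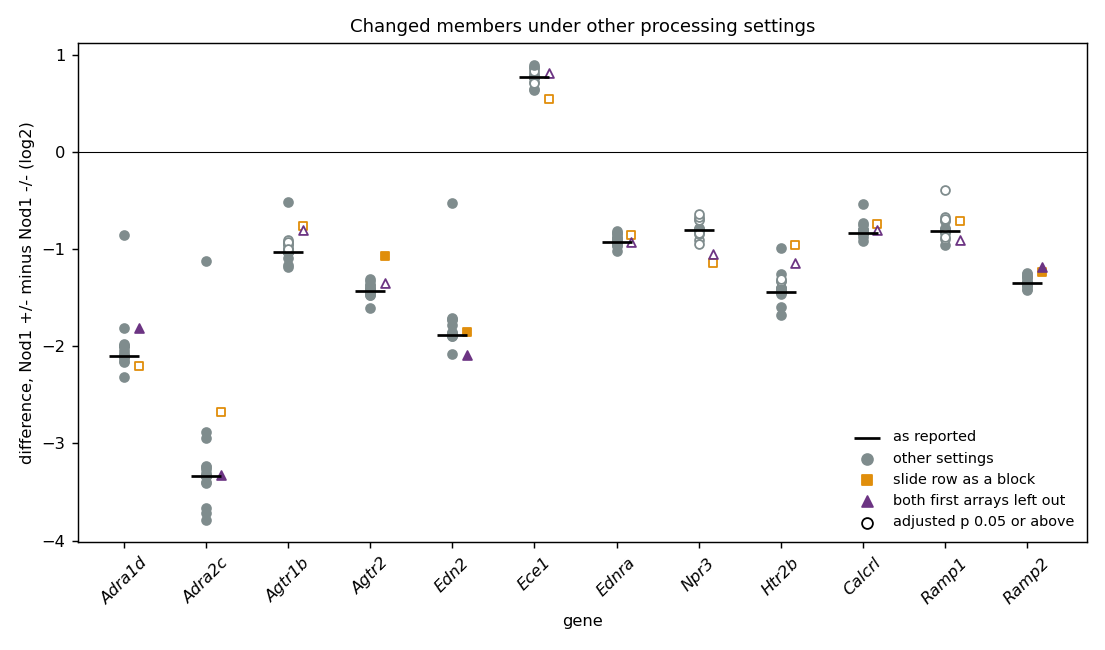
Difference between genotypes in log2 units (y axis) for the 12 changed members (x axis) as reported (bar) and under 19 other settings (points); open symbols had an adjusted p of 0.05 or above. No point crosses 0, the slide-row block stays filled for Agtr2, Edn2 and Ramp2, and the dim genes Adra1d, Adra2c and Edn2 have points nearer 0, from normexp.

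Of 94 tested genes on 3 lists of genes that supply, break down or transmit these signals, 12 rose and 12 fell (25.5%, beside 18.7% of all genes), with a median difference of -0.0045. Among genes of peptide and amine supply and breakdown 2 of 26 rose and 2 fell (15.4%). Tph1, which makes serotonin, read -0.06, -0.43 and -0.44 against -2.22, -1.95 and -2.61 and rose 3.86-fold (1.95, standard error 0.20; adjusted p = 0.00301). The peptidase gene Anpep fell by 0.82 (adjusted p = 0.00878), and Ece2 rose by 0.57 (0.034). Tph1 was past the threshold in all 19 settings, Anpep in 17 and Ece2 in 7. The mean of the Ece2 probes differed by 0.11 (0.642), and the Ece2 call was lost without any one array (0.0526 to 0.11).

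Of 24 tested genes for other vasoactive peptides and receptors 5 rose and 2 fell (29.2%). Apln, the vasodilator peptide apelin, rose by 1.16 (adjusted p = 0.00395), from -0.48 to -0.20 in Nod1 -/- to 0.69 to 0.99 in Nod1 +/- aortas, and was past the threshold in all 19 settings. The ATP receptor genes P2ry2 and P2rx1 rose 2.14-fold and 1.94-fold (0.00253 and 0.013), and the sphingosine-1-phosphate receptor gene S1pr3 rose 2.01-fold (0.00428). Vipr2, a receptor for vasoactive intestinal peptide, fell by 1.46 (0.0112), and Oxt fell by 0.81 (0.0318). P2ry2 and S1pr3 were past the threshold in 18 of 19 settings, P2rx1 and Vipr2 in 16 and Oxt in 10.

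Of 44 genes that couple the receptors to contraction or relaxation 5 rose and 8 fell (29.5%). The receptor kinase gene Grk5 rose by 1.21 (adjusted p = 0.0106) and the cyclic nucleotide phosphodiesterase gene Pde1a by 0.74 (0.00944). Rgs4, which shortens G-protein signals, fell by 0.77 (0.00511), Grk4 by 0.89 (0.0249), the guanylyl cyclase subunit gene Gucy1a3 by 0.70 (0.0187) and the calcium release channel gene Itpr3 by 0.67 (0.0285). Of these 6, Rgs4 was past the threshold in 18 of 19 settings, Grk5 in 17, Pde1a in 16, Grk4 and Gucy1a3 in 11 and Itpr3 in 10. The mean of the Pde1a probes differed by 0.27 (0.0909).

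In bulk tissue fewer cells of a type and less RNA per cell cannot be told apart. Endothelial markers, all 10 above background, averaged 1.88 to 2.09 in Nod1 +/- and 2.28 to 2.42 in Nod1 -/- aortas. Of the 10, 2 fell (20.0%, near the 18.7% of all genes), Tek (-1.92) and Tie1 (-0.60). Erg (-0.56), Esam (-0.30), Pecam1 (-0.26), Emcn (-0.21) and Vwf (-0.15) were lower but did not pass. Cdh5 (0.30), Egfl7 (0.10) and Kdr (0.02) had small differences of the opposite sign that did not pass. Smooth muscle markers, all 9 above background, averaged 4.95 to 5.16 and 4.71 to 5.13, with 1 higher. Pericyte markers (5 of 5 above background, 2 lower) averaged 2.83 to 3.09 and 3.12 to 3.59, and fibroblast markers (5 of 5, 3 lower) 4.84 to 4.99 and 5.27 to 5.53. Of 4 tested Schwann cell markers 2 fell, Fabp7 by 2.26 and S100b by 1.94, with Erbb3 above background on no array; the list's mean ran from -2.41 to -1.99 in Nod1 +/- and from -2.03 to -1.38 in Nod1 -/- aortas. Of 5 mesothelial markers Lrrn4 fell by 1.99, and their mean ran from -0.81 to 0.66 and from 0.51 to 1.01. The endothelial, pericyte and fibroblast means were lower in Nod1 +/- aortas without overlap, and the Schwann and mesothelial means overlapped. Of the members that did not pass, Ednrb was lower without overlap, and Edn1, Adm and Nppa were higher without overlap. All 11 members that fell were lower and Ece1 was higher without overlap. These were picked by the test on these same arrays, so their separation is no separate result. The genotypes did not overlap for 42.4% of all genes. The part of these cell types in the members' results was not tested. Neutrophil markers, all 9 above background with 7 higher, averaged 3.44 to 4.02 and 1.07 to 1.49. Nod1 +/- replicate 1 stood apart for skeletal muscle markers, with a mean of 2.92 against -1.60 to -0.88 on the other arrays.

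**Figure D4:**
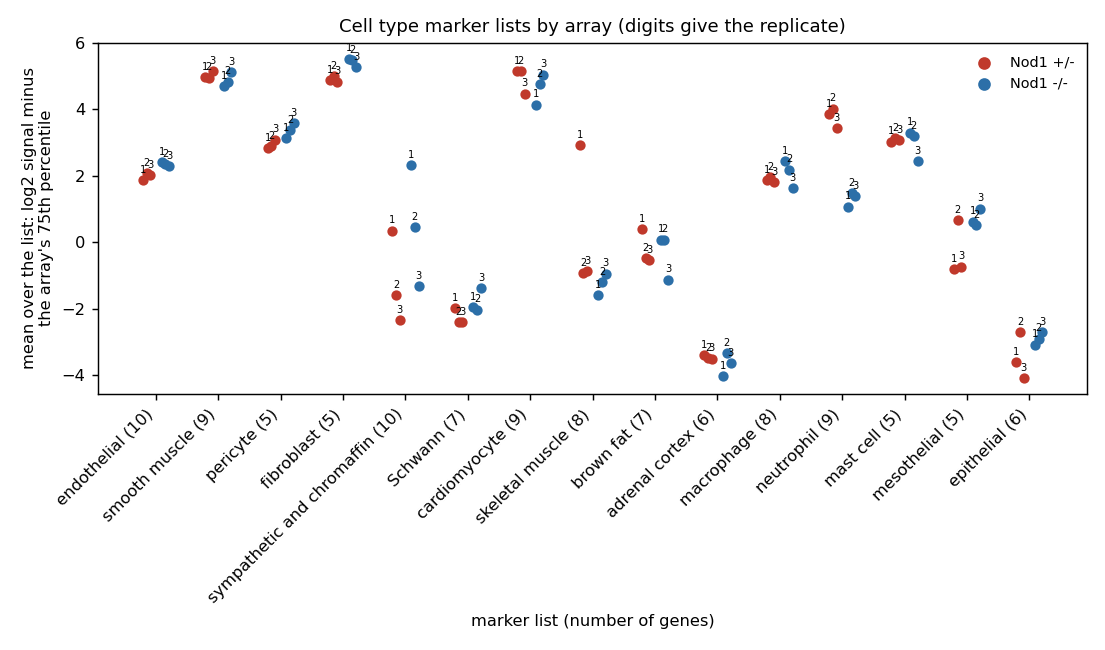
Mean log2 signal minus the array's 75th percentile (y axis) over each marker list (x axis, number of genes in brackets), 1 point per array, digits giving the replicate. Smooth muscle means overlap between genotypes, endothelial means do not (1.88 to 2.09 against 2.28 to 2.42), and neutrophil means are higher in every Nod1 +/- array.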

How the data were processed

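The data were 6 arrays on 1 slide with 1 scan time. Agilent software gave each spot's processed intensity, deposited by the authors, per the file headers after spatial detrending and with no local background subtracted. The headers name Feature Extraction 10.7.1.1, the submitters' processing notes 9.5.1.1. The deposited value table, an alternative here, holds linear intensity with the same distribution (median 33.4) on every array, and how the authors made it so is not given in the sources used here.

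Spots with a feature outlier flag were left out, spots of a probe averaged, and log2 intensity taken minus the 75th percentile of the array's 55681 non-control probes. A probe was kept if well above background on at least 3 arrays, and a gene was read by its kept probe of highest mean. Gene names and probe positions (mm9) are the files' own. The genotypes were compared with limma 3.58.1 (R 4.3.3, lmFit and eBayes) over 21478 genes with Benjamini-Hochberg adjustment, without a block. A check on simulated data looked at the recovered size of shifts added to independent noise. The simulated data held no slide-row or tissue effect, so the check does not cover such effects. Where a genotype was dim on every array, a lower bound of the fold was computed against the lowest signal well above background. Arrays had 48.6% to 58.3% of probes well above background and no saturated spot. Named genes are every changed member, members differing by at least 1 on the log2 scale, 10 members named beforehand whatever their result, and up to 6 changed genes with the largest difference of each pathway list. The members, lists and markers were chosen with earlier results of these data known. Alternatives changed the background correction, scaling, filter, choice of probe, covariates, prior and the arrays used. The values of 1 pathway gene are not reported here.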

Additional observations from a re-analysis of the deposited data

How the results depend on the processing

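Of the 12 changed members all kept their direction in all 19 settings, and Edn2 and Ramp2 their call. The number of changed members, 12 as reported, was 3 when blocking on slide row, 4 without both first arrays and 7 to 11 with 1 array left out. The number of changed genes, 4012 as reported, was 2506 with median scaling over all probes (chosen after seeing the data), 1636 without a filter on dim probes, 1033 when blocking on slide row, 2281 with Xist signal as a covariate, 641 without both first arrays, and 1459 to 3387 with 1 array left out. For the pathway lists, 24 as reported, it was 12 without a filter, 6 with the slide row, 15 with Xist signal, 3 without both first arrays and 11 to 21 with 1 array left out. Adrb1, at 0.01 as reported, was -0.75 with the mean of its probes, of which one was at background in Nod1 +/- arrays. The cause of these shifts was not tested, except that leaving out arrays leaves fewer samples, the slide row block rests the contrast on Nod1 -/- replicate 3, and no filter tests 34743 genes. Whether replicate numbers pair the samples could not be told from 3 arrays per genotype. The correlations of same-numbered arrays' deviations were 0.083, 0.277 and 0.111, and those of other pairs ran from -0.306 to 0.126. Nod1 +/- replicates 1 and 2 correlated best with their own number, while replicate 3 did so with Nod1 -/- replicate 1 (0.126). In the replicate block fit 4040 genes changed, and 10 of the 12 members kept their call, with Agtr1b and Npr3 lost and Adra2a gained. Dim probes limit what can be said of 8 untested members and of the size of the Adra1d, Adra2c and Edn2 differences.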
